A study of Mus musculus with 20 samples.

Results

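The mammalian clock restrains itself through a small set of repressors, and 8 of these genes were followed here in the livers of mouse fetuses from nutrient-restricted pregnancies. They are the period genes Per1, Per2 and Per3, the cryptochromes Cry1 and Cry2, Gm129 (now named Ciart, the gene of the repressor CHRONO), and Bhlhe40 and Bhlhe41, which encode the repressors DEC1 and DEC2. The members were taken by name, all 8 were found among the 17573 genes tested, and all 8 passed the filter on low counts. Polyadenylated RNA of the right liver lobe was sequenced from 20 fetuses of the outbred CD-1 IGS strain at embryonic day 18.5, which the series title describes as male. The groups were maternal nutrient restriction (MNR), with 10 fetuses, and control, with 10 fetuses. Each group held 5 litters, named A to E, with 2 littermates each, and an MNR litter and a control litter with the same letter came from different dams. The sources used here do not give the amount and timing of the restriction or the hour of collection.

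As background, the transcription factors CLOCK and ARNTL (BMAL1) bind DNA as a pair at short sequences called E-boxes and switch on the Per, Cry, Ciart and Bhlhe40 genes. PER and CRY proteins then gather in the nucleus and block CLOCK and ARNTL, CHRONO also binds and represses that pair, and the DEC proteins compete for E-boxes. In adult mouse liver these genes cycle over the day, and Per1 and Per2 can also be induced by hormones such as glucocorticoids. The nuclear receptors REV-ERB alpha and beta, from Nr1d1 and Nr1d2, form a second loop that represses Arntl and Cry1.

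Promoter sequence is shown for 5 members because the clock acts on its own repressors through short DNA elements. E-boxes and D-boxes (sites of the PAR bZIP factors such as TEF) are among these elements. The windows run from 250 bases before to 50 after the gene start in RefSeq (table of build GRCm38.p6), 5′ to 3′ on the gene's strand, and were placed on mm9 by an exact match. Of the 8 members 6 were matched, with 7 promoters since Per1 has 2. Capitals mark an E-box (CACGTG), its variant the E-prime box (CACGTT, which reads AACGTG on the other strand) or a D-box (TTATGTAA). Both strands were searched, and none of these marked motifs overlapped another in the windows shown.
Per1, first promoter, plus strand, chr11:68912201-68912500 (mm9): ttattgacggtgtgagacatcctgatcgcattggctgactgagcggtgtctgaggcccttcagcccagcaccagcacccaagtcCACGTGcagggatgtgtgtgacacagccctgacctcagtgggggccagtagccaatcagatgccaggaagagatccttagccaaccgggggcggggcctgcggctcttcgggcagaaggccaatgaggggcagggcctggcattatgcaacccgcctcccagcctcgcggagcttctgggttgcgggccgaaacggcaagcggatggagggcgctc
Per3, minus strand, chr4:150418725-150419024 (mm9): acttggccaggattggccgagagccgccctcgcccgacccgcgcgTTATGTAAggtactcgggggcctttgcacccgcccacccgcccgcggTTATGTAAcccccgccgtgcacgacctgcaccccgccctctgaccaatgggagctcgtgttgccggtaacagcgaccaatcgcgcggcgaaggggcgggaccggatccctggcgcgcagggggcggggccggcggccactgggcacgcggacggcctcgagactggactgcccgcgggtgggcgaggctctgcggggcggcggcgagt
Cry1, minus strand, chr10:84647750-84648049 (mm9): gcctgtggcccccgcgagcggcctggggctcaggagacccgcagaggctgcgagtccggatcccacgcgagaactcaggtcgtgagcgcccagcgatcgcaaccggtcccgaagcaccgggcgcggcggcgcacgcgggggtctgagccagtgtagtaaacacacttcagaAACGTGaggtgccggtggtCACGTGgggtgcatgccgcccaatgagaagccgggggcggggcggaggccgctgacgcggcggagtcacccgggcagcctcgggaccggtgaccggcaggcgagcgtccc
Cry2, minus strand, chr2:92274177-92274476 (mm9): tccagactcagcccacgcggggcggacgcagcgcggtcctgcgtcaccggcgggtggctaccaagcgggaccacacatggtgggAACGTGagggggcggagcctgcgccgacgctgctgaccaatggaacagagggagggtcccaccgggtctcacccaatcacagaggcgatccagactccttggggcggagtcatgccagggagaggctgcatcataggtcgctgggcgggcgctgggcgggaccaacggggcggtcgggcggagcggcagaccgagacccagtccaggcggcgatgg
Gm129, minus strand, chr3:95686102-95686401 (mm9): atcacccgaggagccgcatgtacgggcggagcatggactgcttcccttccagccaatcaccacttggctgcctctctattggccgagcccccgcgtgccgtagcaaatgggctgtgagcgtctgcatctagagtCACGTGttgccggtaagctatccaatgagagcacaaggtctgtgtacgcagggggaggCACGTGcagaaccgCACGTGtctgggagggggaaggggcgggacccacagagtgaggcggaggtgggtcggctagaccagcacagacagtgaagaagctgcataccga

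The Gm129 window holds 3 E-boxes, with first bases 116, 58 and 44 bases before the start. The first Per1 window holds 1, at 166 bases before the start, Cry1 holds 1 E-box and 1 E-prime box, at 60 and 79 bases before the start, and Bhlhe41, not printed, holds 1 E-box at 153 bases before the start. Cry2 holds an E-prime box and no E-box, and Per3 holds neither but has 2 D-boxes, at 205 and 158 bases before the start. An E-box was present in 4 of the 7 member promoters, against 7.15% of 32851 promoters of the same length, an E-prime box in 2 of 7, against 4.68%, and a D-box in 1 of 7, against 0.938%. The palindromic cAMP response element TGACGTCA (1.79% of promoters) and the ROR element TAGGTCA (2.61%) had no match in these 7 windows. The shorter cAMP site TGACG, which is part of TGACGTCA, was found in 4 of the 7 windows, against 20.8% of promoters. These windows belong to 3 members, since both Per1 windows held the site. These matches describe letters in a window and not measured binding.

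The deposited counts totalled 14925778 to 28016953 per fetus. The restriction acted on the dam, so littermates were added together and the litter is the replicate in the main fit. Levels are CPM, the counts of a gene per 1000000 counts of the TMM-scaled library. A log2 fold change is MNR over control, its error is the standard error (SE), and its p was computed by quasi-likelihood in edgeR and adjusted by Benjamini-Hochberg over all 17573 genes. At an adjusted p of 0.05, 117 genes (0.666% of those tested) passed, 73 higher and 44 lower in MNR. That number depended on single litters: it was 512 without MNR litter D, 843 without control litter B, and 0 when MNR litter B or E or control litter A, C or E was left out (edgeR, 2818 to 3102 genes at an unadjusted p under 0.05). Hepatocyte markers summed to 124600 to 142700 CPM in MNR litters and 122600 to 144400 CPM in control litters. In such bulk samples fewer cells of a type and less RNA per cell cannot be told apart.

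None of the 8 repressors passed the threshold in edgeR, although 6 of the 8 had a positive log2 fold change with an unadjusted p under 0.05. The share of genes with such a p was 19.6% over the whole table, and 8676 of 17573 log2 fold changes were positive. The 6 were Per1, Per3, Cry2, Gm129, Bhlhe40 and Bhlhe41, with adjusted p-values between 0.101 and 0.208. Per2 and Cry1 had log2 fold changes near or below 0. The median log2 fold change of the 8 members was 0.34, against -0.00271 over all genes tested, and it lay between 0.30 and 0.34 under the other scalings (upper quartile, RLE, or none). The litters of the groups overlapped for all 8, where over all genes they did not overlap for 4.5%. DESeq2 on the same litter sums called 2 members, Per1 (adjusted p = 0.0419) and Cry2 (adjusted p = 0.0351), and called 7.49% of its genes. Limma-voom on single fetuses with the litter as a random effect called the same 2 (adjusted p = 0.0272 and 0.0411), and called 6.74% of its genes.

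**Figure D1:**
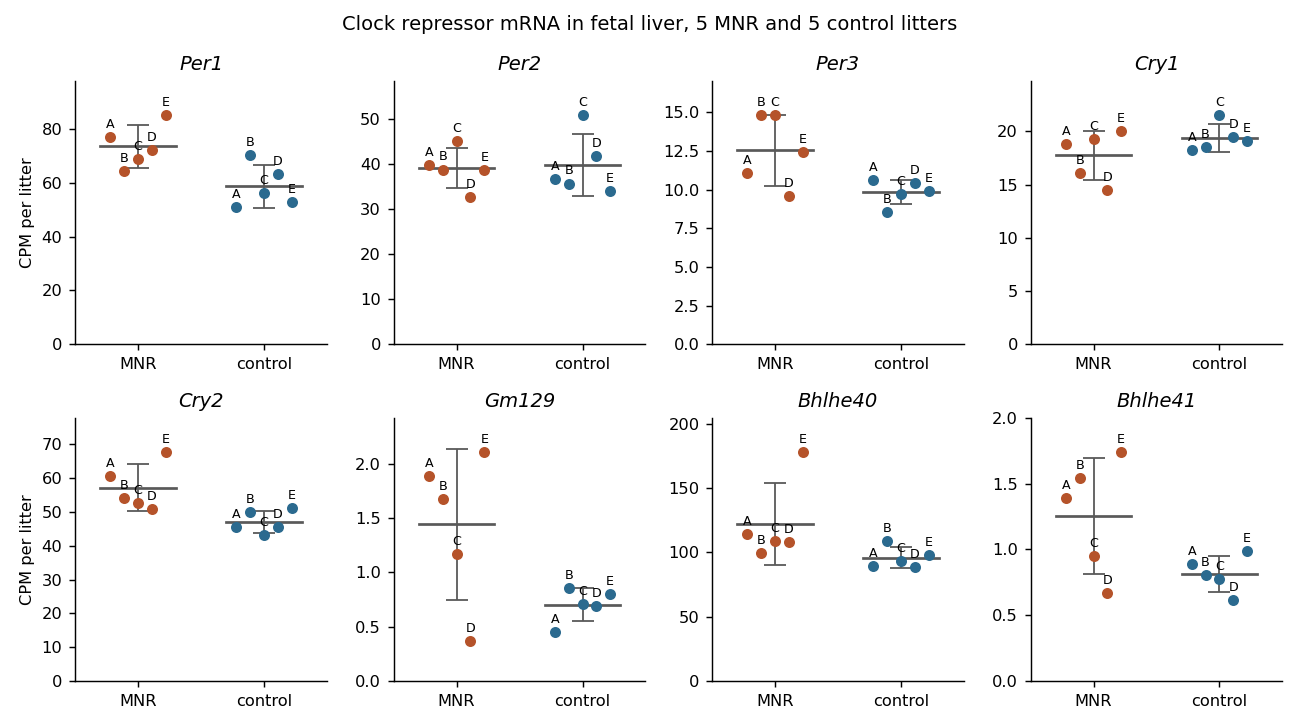
Level of each repressor in CPM (vertical axes, from 0) in 5 MNR and 5 control litters, with each point a litter sum named by its letter, the long bar the mean and the whiskers the SD. The groups overlap in every panel, MNR litter D is the lowest MNR litter in 6 of the 8 panels, and MNR litter E is the highest in 6.

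Per1 and Per3, but not Per2, had higher means in MNR livers among the period genes. Per1, which like Per2 can be induced by hormones, lies on the plus strand of chromosome 11 at 68908719 to 68923462 (mm9). It stood at 77.0, 64.5, 69.0, 72.4 and 85.2 CPM in MNR litters A to E, against 51.1, 70.4, 56.2, 63.5 and 53.1 CPM in control litters A to E. All 5 MNR litters lay above the control median and 3 lay above every control litter, and the overlap came from control litter B. The means were 73.6 ± 7.97 CPM in MNR and 58.8 ± 7.98 CPM in control (SD, n = 5 each, log2 fold change 0.32, SE 0.10, edgeR adjusted p = 0.112), which is 1.25-fold with a 95% interval of 1.08 to 1.45. Without control litter B Per1 passed (log2 fold change 0.39, edgeR adjusted p = 0.0351), in a fit that called 843 of 17748 genes. In every other fit that left out 1 litter Per1 did not pass, with edgeR adjusted p-values of 0.118 to 0.225. Over all alternatives run its adjusted p lay between 0.00996 and 0.324. The 0.00996 came from edgeR with fetuses as separate libraries, which does not take the litter as the replicate. The next lowest was 0.0272, in limma-voom with the litter as a random effect.

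Per2, whose protein is a main brake on CLOCK and ARNTL, occupies chromosome 1 from 93312561 to 93355907 (minus strand). It stood at 39.8, 38.7, 45.1, 32.7 and 38.5 CPM in MNR litters A to E, against 36.6, 35.6, 50.7, 41.6 and 33.9 CPM in control litters A to E. The groups overlapped widely, and litter C was the highest in each. The means were 39.0 ± 4.39 CPM in MNR and 39.7 ± 6.79 CPM in control (SD, n = 5 each, log2 fold change -0.03, SE 0.11, edgeR adjusted p = 0.922). The 95% interval of the fold ran from 0.828 to 1.17, so these litters do not show that Per2 was equal in the groups. The sign turned without control litter C (log2 fold change 0.077) and without MNR litter D (0.030).

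Per3, the period gene that mouse clocks can run without, occupies chromosome 4 from 150377761 to 150418774 (minus strand). It stood at 11.1, 14.8, 14.8, 9.56 and 12.4 CPM in MNR litters A to E, against 10.6, 8.57, 9.74, 10.4 and 9.89 CPM in control litters A to E. MNR litters A, B, C and E lay above every control litter, while litter D lay inside the control range. The means were 12.5 ± 2.29 CPM in MNR and 9.84 ± 0.791 CPM in control (SD, n = 5 each, log2 fold change 0.35, SE 0.12, edgeR adjusted p = 0.139). Without MNR litter D Per3 passed (log2 fold change 0.43, edgeR adjusted p = 0.0473), in a fit that called 512 of 17697 genes. In every other fit that left out 1 litter Per3 did not pass, with edgeR adjusted p-values of 0.169 to 0.278. Its adjusted p lay between 0.0116 and 0.52 over all alternatives. The 0.0116 came from edgeR with fetuses as separate libraries, which does not take the litter as the replicate. The next lowest was the edgeR value without MNR litter D.

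The cryptochromes differed in sign, with a higher mean in MNR for Cry2 and a lower one for Cry1. Cry2 (chromosome 2, 92243803 to 92274200, minus strand) encodes one of the closely related proteins that close the negative loop. It stood at 60.6, 54.1, 52.7, 50.9 and 67.7 CPM in MNR litters A to E, against 45.4, 49.9, 43.2, 45.5 and 51.2 CPM in control litters A to E. MNR litters A, B, C and E lay above every control litter, and litter D lay just under control litter E. The means were 57.2 ± 6.92 CPM in MNR and 47.0 ± 3.37 CPM in control (SD, n = 5 each, log2 fold change 0.28, SE 0.08, edgeR adjusted p = 0.101), and this adjusted p was the lowest of the 8 members. In the fits that leave out 1 litter the adjusted p of Cry2 lay between 0.061 and 0.214. Over all alternatives it lay between 0.0103 and 0.335. The 0.0103 came from edgeR with fetuses as separate libraries, which does not take the litter as the replicate. The next lowest was 0.0351, in DESeq2.

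Cry1, the stronger repressor of the pair in mouse cells and a target of REV-ERB alpha, occupies chromosome 10 from 84594447 to 84647799 (minus strand). It stood at 18.8, 16.1, 19.3, 14.5 and 20 CPM in MNR litters A to E, against 18.2, 18.5, 21.5, 19.5 and 19.1 CPM in control litters A to E. MNR litters B and D lay below every control litter and the others lay inside the control range. The means were 17.7 ± 2.34 CPM in MNR and 19.4 ± 1.31 CPM in control (SD, n = 5 each, log2 fold change -0.13, SE 0.09, edgeR adjusted p = 0.471). The 95% interval of the fold ran from 0.798 to 1.05. The sign was negative in all 24 alternatives run.

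Within a litter, the ratio of Cry2 to Cry1 was higher in every MNR litter than in any control litter. This ratio does not depend on how libraries are scaled, and it was singled out after its values were seen. It was 3.23, 3.36, 2.74, 3.51 and 3.38 in MNR litters A to E, against 2.50, 2.70, 2.01, 2.33 and 2.67 in control litters A to E. The mean ratio was 3.24 ± 0.299 in MNR and 2.44 ± 0.284 in control (SD, n = 5 each). Of the 28 ratios between members, 2 did not overlap between the groups, and both had Cry1 below the line. The other was Per3 over Cry1, at 0.712 ± 0.134 in MNR and 0.51 ± 0.0532 in control. Both separations were narrow, with the lowest MNR litter at 2.74 and 0.593 and the highest control litter at 2.70 and 0.582, and how often ratios of other genes separate was not computed. The ratio of Per1 to Per2 overlapped, with 1.53 to 2.21 in MNR litters and 1.11 to 1.98 in control litters.

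**Figure D2:**
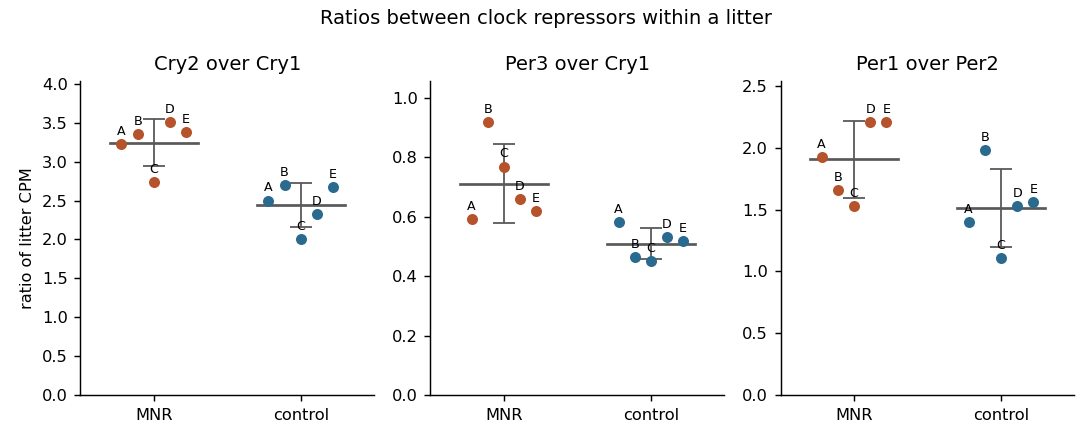
Ratio of the litter CPM of 2 repressors (vertical axes, from 0) in 5 MNR and 5 control litters, with each point a litter, the long bar the mean and the whiskers the SD. The lowest MNR litter for Cry2 over Cry1, at 2.74, lies just above the highest control litter, at 2.70, whereas for Per1 over Per2 the groups overlap.

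Gm129 had the largest log2 fold change of the 8 and also the widest spread. It occupies chromosome 3 from 95682426 to 95686174 (minus strand), and its product CHRONO binds ARNTL and represses the CLOCK and ARNTL pair. It stood at 1.89, 1.68, 1.17, 0.367 and 2.11 CPM in MNR litters A to E, against 0.455, 0.859, 0.706, 0.695 and 0.80 CPM in control litters A to E. MNR litters A, B, C and E lay above every control litter, and MNR litter D lay below every control litter. These values rest on few reads, with 16 to 81 counts in an MNR litter and 19 to 35 in a control litter. The means were 1.44 ± 0.694 CPM in MNR and 0.703 ± 0.155 CPM in control (SD, n = 5 each, log2 fold change 1.03, SE 0.37, edgeR adjusted p = 0.155), which is 2.04-fold with a 95% interval of 1.17 to 3.56. Without MNR litter D Gm129 passed (log2 fold change 1.28, edgeR adjusted p = 0.0168), in a fit that called 512 of 17697 genes. In every other fit that left out 1 litter Gm129 did not pass, with edgeR adjusted p-values of 0.133 to 0.296. Over all alternatives its adjusted p lay between 0.0168 and 0.375.

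Bhlhe40 and Bhlhe41, both on chromosome 6, had higher means in MNR, in each case with litter E on top. Bhlhe40, on the plus strand at 108610623 to 108616919, encodes DEC1, which responds to many stimuli besides the clock, low oxygen among them. It stood at 114, 99.8, 109, 108 and 178 CPM in MNR litters A to E, against 89.7, 109, 93.4, 88.9 and 98.0 CPM in control litters A to E. MNR litter E stood apart, and the other 4 MNR litters lay close to or inside the control range. The means were 122 ± 31.9 CPM in MNR and 95.8 ± 8.27 CPM in control (SD, n = 5 each, log2 fold change 0.35, SE 0.14, edgeR adjusted p = 0.208). Without MNR litter E the log2 fold change was 0.17.

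Bhlhe41, on the minus strand at 145806763 to 145814078, encodes DEC2, the close relative of DEC1. It stood at 1.39, 1.54, 0.948, 0.665 and 1.74 CPM in MNR litters A to E, against 0.886, 0.806, 0.776, 0.616 and 0.986 CPM in control litters A to E. MNR litters A, B and E lay above every control litter, and litters C and D lay inside the control range. The means were 1.26 ± 0.442 CPM in MNR and 0.814 ± 0.138 CPM in control (SD, n = 5 each, log2 fold change 0.62, SE 0.25, edgeR adjusted p = 0.196). These values rest on 29 to 67 counts in an MNR litter and 30 to 37 in a control litter. Its log2 fold change was 0.27 with fetus 1 of each litter alone and 0.95 with fetus 2 alone, and its lowest adjusted p over all alternatives, without MNR litter D in edgeR, was 0.0593.

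**Figure D3:**
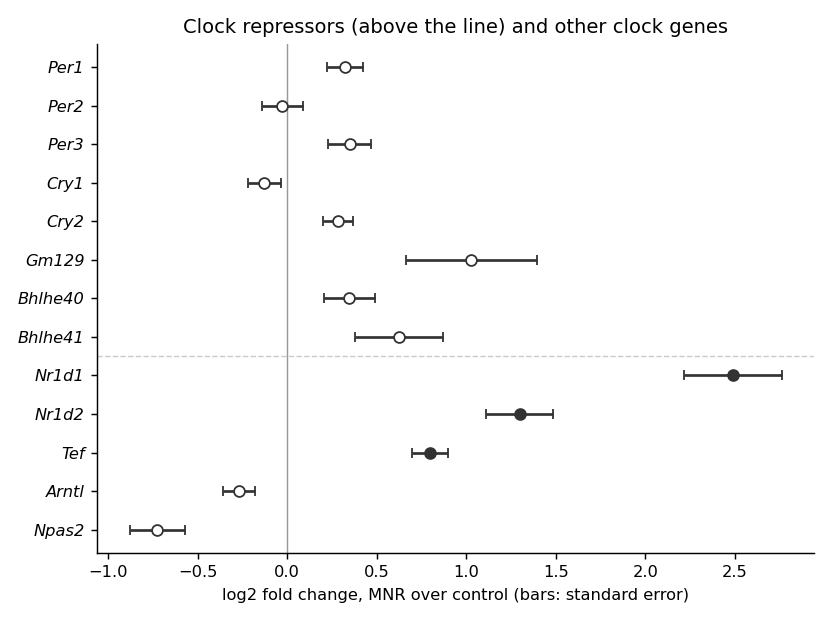
Log2 fold change of MNR over control (horizontal axis) with its standard error as bars, for the 8 repressors above the dashed line and 5 other clock genes below it. Filled points passed an edgeR adjusted p of 0.05 and open points did not, so the repressors, at -0.13 to 1.03, are all open.

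MNR litter D held the lowest value of its group for 6 of the 8 members and MNR litter E the highest for 6. In the same litter D, Nr1d1 and Nr1d2 were also the lowest of the MNR group, at 4.4 and 14 CPM, but still above every control litter (0.774 to 2.15 CPM for Nr1d1 and 5.84 to 11.6 CPM for Nr1d2). Arntl, the activator, was highest of the MNR litters in D, at 28.4 CPM. Over all genes tested, litter D was the lowest MNR litter for 22.2%. The share of genes with their highest MNR value in litter E was not computed. Its fetuses had 28016953 and 16703824 counts, the most and the fewest of the MNR group. The coefficient of variation between litters was larger in MNR than in control for 6 of the 8 members, with Per1 and Per2 the exceptions, against 47.1% of all genes.

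**Figure D4:**
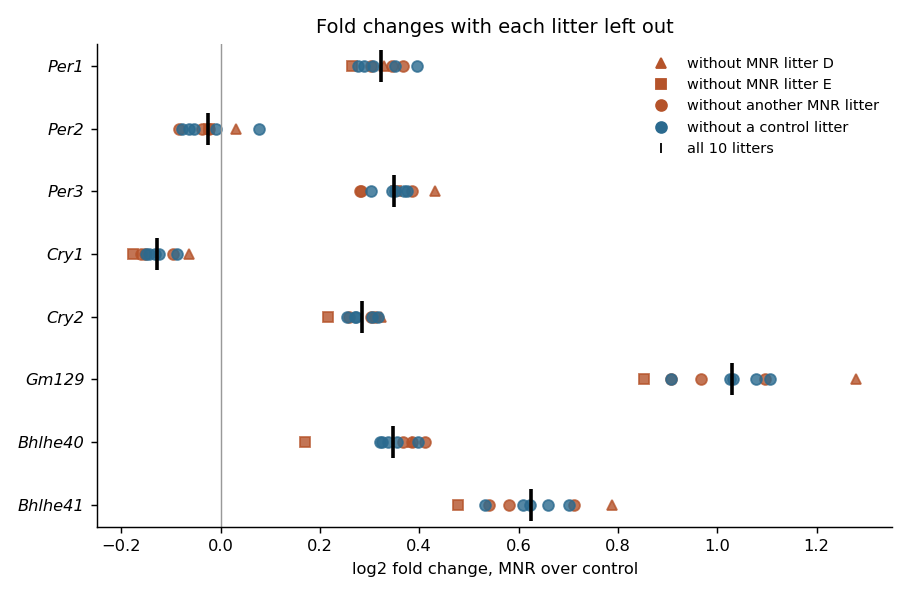
Log2 fold change of each repressor (horizontal axis) in 10 fits that leave out 1 litter each, where triangles leave out MNR litter D, squares MNR litter E, orange circles another MNR litter and blue circles a control litter, and the black bar is the value from all 10 litters. Leaving out MNR litter D gives the highest values for Per3, Cry1, Cry2, Gm129 and Bhlhe41, and leaving out MNR litter E gives the lowest for Per1, Cry1, Cry2, Gm129, Bhlhe40 and Bhlhe41.

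Set against the spread between littermates, the spread between litters of a group was widest for Gm129, Per3 and Per1. For Gm129 the SD between litter means within a group was 1.86 times the SD between littermates (0.693 and 0.372 on the log2 scale), a ratio above that of 96.6% of genes. Gm129 littermates themselves differed more than the median gene's, whose SD between littermates was 0.169, while those of Per1 and Per3 differed less, at 0.113 and 0.125. The ratios were 1.56 for Per3 and 1.55 for Per1, above 91.3% and 91.0% of genes. For Cry2, Cry1 and Bhlhe41 they were 0.932, 0.963 and 0.972, close to the median of all genes of 0.936. Per2 and Bhlhe40 both had 1.13. These ratios are descriptions of 10 litters, with no test.

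Per kilobase of exon, Bhlhe40 was the most abundant repressor and Bhlhe41 the least in both groups. Bhlhe40 had 37.2 ± 9.76 CPM per kb in MNR and 29.3 ± 2.53 CPM per kb in control. Per1 followed at 13.1 ± 1.41 and Cry2 at 9.05 ± 1.10 CPM per kb in MNR, with 10.5 ± 1.42 and 7.44 ± 0.533 CPM per kb in control. Per2 had 6.67 ± 0.751 and Cry1 5.88 ± 0.776 CPM per kb in MNR, against 6.79 ± 1.16 and 6.43 ± 0.435 CPM per kb in control (SD, n = 5 for each of these values). Per3, Gm129 and Bhlhe41 had means of 1.30, 0.637 and 0.201 CPM per kb in MNR and 1.02, 0.311 and 0.130 CPM per kb in control. The order of the 8 genes was the same in both groups. Merged exons can be longer than a gene's main transcript, with 6320 against 3976 bases for Cry2 and 9608 against 5999 for Per3. The order of genes with similar levels could change with the length used or with the counting of reads that match several transcripts. The litter ranges of neighbours overlapped between Per2 and Cry1 and between Gm129 and Bhlhe41 in MNR, and between Cry2 and Per2 and between Per2 and Cry1 in control. Arntl, their activator, had 8.39 CPM per kb in MNR and 10.1 CPM per kb in control, which sets it between Cry2 and Per2 in MNR and between Per1 and Cry2 in control.

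**Figure D5:**
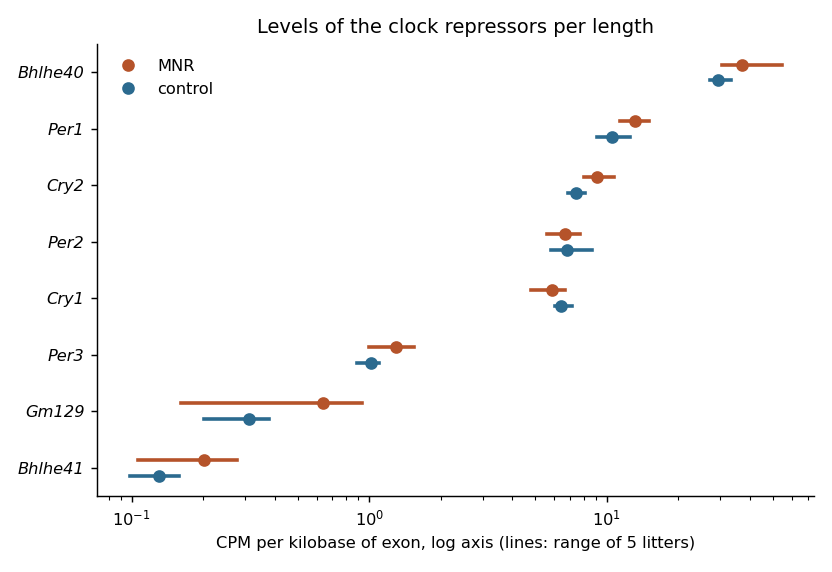
Level of each repressor in CPM per kilobase of merged exon length (horizontal log axis) in MNR (upper of each pair) and control (lower), with the point the mean and the line the range of 5 litters. The genes span from 37.2 CPM per kb for Bhlhe40 to 0.201 for Bhlhe41 in MNR, in the same order in both groups.

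Around the repressors, other parts of the clock were read from lists drawn up with earlier results of these data known. Of all genes, 0.666% passed in edgeR and 19.6% had an unadjusted edgeR p under 0.05. DESeq2 called 7.49% of its genes and limma-voom 6.74%. The counts per list stand beside these shares and were not tested. Of the REV-ERB and ROR receptors 2 of 5 rose, Nr1d1 by 2.49 on the log2 scale (SE 0.27, edgeR adjusted p = 0.018) and Nr1d2 by 1.30 (SE 0.19, edgeR adjusted p = 0.0257), and of the PAR bZIP factors and Nfil3 1 of 4 rose, Tef by 0.80 (SE 0.10, edgeR adjusted p = 0.0257). DESeq2 and limma-voom each called 2 genes in both of these lists. Hlf, another PAR bZIP factor, had 0.22 and did not pass (edgeR adjusted p = 0.0992). Of the 4 clock activators 0 passed in edgeR, with 2 at an unadjusted p under 0.05 and 1 past the threshold in DESeq2 and in limma-voom. Npas2, which can stand in for CLOCK, had 2.12 ± 0.324 CPM in MNR and 3.51 ± 0.70 CPM in control (SD, n = 5 each, log2 fold change -0.73, edgeR adjusted p = 0.0564), and Arntl had 24.5 ± 2.29 CPM in MNR and 29.6 ± 3.57 CPM in control (log2 fold change -0.27, edgeR adjusted p = 0.139). The median log2 fold changes of these 3 lists were 0.27, 0.40 and -0.29.

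Of 16 kinases and stability factors of the PER and CRY proteins 0 passed in edgeR (2 at an unadjusted p under 0.05, 0 in DESeq2, 1 in limma-voom), with a median log2 fold change of 0.02 (-0.01 with upper-quartile scaling). Casein kinase Csnk1e, which marks PER proteins for breakdown, had 0.23, and Csnk2b, a subunit of casein kinase 2, had -0.15 (edgeR adjusted p = 0.149 and 0.138). Of 14 partners of the PER complex 0 passed in edgeR (3 unadjusted, 1 in DESeq2, 1 in limma-voom), with a median of -0.06, the helicase Dhx9 at -0.23 and Tipin at -0.22 (edgeR adjusted p = 0.098 and 0.221). Of 9 bHLH-Orange and ID relatives of the DEC genes 0 passed in edgeR (1 unadjusted, 1 in DESeq2, 1 in limma-voom) and 8 had a negative log2 fold change, the median being -0.28. The Notch target Heyl and Id3, an inhibitor of bHLH factors, had -0.64 and -0.34 (edgeR adjusted p = 0.124 and 0.267). Over all genes the shares were 19.6% unadjusted in edgeR, 7.49% called in DESeq2 and 6.74% in limma-voom.

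Among genes around cAMP and glucocorticoid signalling, 1 of 10 cAMP and CREB genes and 1 of 8 glucocorticoid genes rose in edgeR. In each list 4 genes had an unadjusted edgeR p under 0.05. DESeq2 and limma-voom each called 2 of the cAMP and CREB genes and 4 of the glucocorticoid genes. Of all genes, 0.666% passed in edgeR and 19.6% had an unadjusted edgeR p under 0.05. The shares called were 7.49% in DESeq2 and 6.74% in limma-voom, and the counts per list were not tested against these shares. Sik1, a kinase induced by cAMP that restrains CREB coactivators, stood at 61.5 ± 5.62 CPM in MNR and 47.5 ± 2.55 CPM in control (SD, n = 5 each) and rose by 0.37 (SE 0.07, edgeR adjusted p = 0.0416). Its relative Sik2 had 0.26 (edgeR adjusted p = 0.115). Zbtb16, a glucocorticoid-induced transcription factor, rose by 1.18 (SE 0.20, edgeR adjusted p = 0.032), and Tsc22d3, the glucocorticoid-induced leucine zipper gene, had 0.64 (edgeR adjusted p = 0.0618). Of 8 tested clock-controlled genes of adult liver 0 passed in edgeR (3 unadjusted, 2 in DESeq2, 1 in limma-voom), with Por, the electron donor of cytochrome P450 enzymes, at 0.60 and Alas1, the first enzyme of heme synthesis, at 0.39 (edgeR adjusted p = 0.0618 and 0.115). The medians of these 3 lists were 0.08, 0.30 and 0.31.

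Markers of other cell types were read beside the members. Of 10 erythroid markers 1 had a positive log2 fold change, with sums of 22840 to 30640 CPM in MNR litters and 22140 to 34960 CPM in control litters. With the erythroid level in the edgeR model 0 members passed and 4 of 8 had an unadjusted p under 0.05, against 6 without it. All 5 neutrophil precursor markers were positive, with sums of 1388 to 2002 CPM in MNR and 1216 to 1412 CPM in control, and all 5 B cell precursor markers were negative, with sums of 20.1 to 31.2 CPM in MNR and 23.5 to 49.7 CPM in control. Macrophage, megakaryocyte, endothelial, stellate and bile duct markers had medians between -0.26 and 0.25, and 0 genes of the 10 marker lists passed in edgeR. Positive were 7 of 8 macrophage, 5 of 5 megakaryocyte and 3 of 5 bile duct markers. For endothelial and stellate markers it was 2 of 5 and 0 of 5. At an unadjusted p under 0.05 the edgeR counts were 4 of 5 for neutrophil precursors and 4 of 5 for megakaryocytes. They were 3 of 5 for B cell precursors, 2 of 5 for stellate cells and 1 of 9 for hepatocytes. The share over all genes was 19.6%. DESeq2 called 3 marker genes and limma-voom 2, where they called 7.49% and 6.74% of all their genes. Pancreatic markers summed to 108 to 427 CPM in 3 fetuses (MNR B_1 and E_1 and control B_1) and to 2.29 to 32.5 CPM in the other 17. Without these 3 fetuses the log2 fold changes of the 6 members named above were 0.25 to 0.98, and 0 members passed. The part of neutrophil and B cell precursors, megakaryocytes, macrophages and stellate cells in the members' values was not tested.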

How the data were processed

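Per the labels' protocols, total RNA of pulverised liver was purified on columns with a DNase step, and the library kit kept strand. The authors deposited whole-number counts per transcript for each fetus, not normalised. The submitters' processing notes name build mm9 and the tools Bowtie2, FastQC, edgeR and DESeq2. The counting method and its handling of strand and of reads with several matches, not given in the sources used here, could change values where genes overlap or share sequence. The series-wide gene table that the authors deposited was treated as a score and not used, since its values equal summed text-sorted ranks (99.7% of genes) and rarely summed counts (8.52% to 9.66%).

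Counts were summed per gene with the GENCODE M1 annotation of the same build. Transcripts matching no gene held 0.0788% to 0.154% of a fetus's counts and were left out. In 90 within-group pairs no fetus repeated another within sampling noise (chi-square of 9.78 to 79.1 per degree of freedom). Littermates were summed, low genes were removed by filterByExpr at a minimum count of 10, and edgeR 4.0.16 in R 4.3.3 gave TMM factors and two-sided quasi-likelihood tests, adjusted by Benjamini-Hochberg with a threshold of 0.05. The procedure was also run on simulated data, with results that are not given here. Alternatives used DESeq2 1.42.0 and limma 3.58.1. P-values of the main fit set the difference between groups against the spread between these litters. With fetuses as separate libraries the spread is that between fetuses. Levels per kilobase use merged exons. Log2 CPM values for correlations and littermates use a prior count of 2.

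The members and lists were chosen with earlier results of these data known. Named are all 8 members, list genes past the threshold or otherwise the 2 of smallest p (where 1 passed, the next by p too), and the 3 genes most correlated with each member.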

Additional observations from a re-analysis of the deposited data

Results flagged for a closer look

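Bhlhe40 in MNR litter E, at 178 CPM, lay far above the other 4 MNR litters, which had 99.8 to 114 CPM, and its gap to the nearest litter was 0.815 of the group's range, past Dixon's critical value of 0.71. Its littermates had 163 and 192 CPM. Among the 16 groups of 5 litters checked, 8 members in 2 groups, this was the 1 that passed, and chance flags about 1 in 20. Without this litter the log2 fold change of Bhlhe40 was 0.17, against 0.35 with it.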

How the results depend on the processing

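Over all genes, 117 passed in edgeR, and the count was 2301 with fetuses as separate libraries, 1088 in limma-voom with the litter as a random effect, 1163 in DESeq2, 875 at an adjusted p under 0.1, 499 with fetus 2 of each litter only, and 0 with fetus 1 only (edgeR, 1699 with an unadjusted p under 0.05). It was 215 without the fetuses high in pancreatic transcripts, an alternative chosen after seeing the data, and 178 with upper-quartile scaling, 68 of them higher in MNR, against 73 of 117. Leaving out each litter gave 0 to 843 (2818 to 4139 with an unadjusted p under 0.05). Among the members 0 passed in edgeR, against 4 with fetuses as separate libraries (Per1, Per3, Cry2 and Gm129), 2 in limma-voom and 2 in DESeq2, and 0 to 2 with a litter left out. Leaving out a litter turned the sign of Per2 (0.030 and 0.077), with -0.084 the lowest, and over all alternatives run the other 7 members kept their sign. The cause of these shifts was not tested. With the litter letter as a replicate block 232 genes and 0 members passed. Same-lettered litters correlated at -0.00928 to 0.184, 3 of the 5 pairs above 0.1, and 2 of 5 MNR litters correlated best with their own letter, so the letters were not taken to pair the litters. Gm129 and Bhlhe41 rest on 5 to 49 counts per fetus, which limits their precision, and both were removed by the filter of 1 CPM in 5 litters.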

Other observations

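Shares of a gene's counts by transcript were compared between the groups as descriptions, with no test. How reads that match several transcripts were counted is not given, so these shares need not measure the use of each transcript. The Per2 transcripts, which differ in length by 2 bases, held 50.6% and 49.4% of its counts in MNR and 50.2% and 49.8% in control. The main Bhlhe40 transcript held 92.2% in MNR and 92.6% in control, and the longest Cry2 transcript 80% in MNR and 80.6% in control. Of the Per3 counts, the full-length protein-coding transcript held 41.2% in MNR and 40.1% in control, and a processed transcript held 28.6% in MNR and 31.0% in control. The shares of Gm129 transcripts differed more, on few counts: a short protein-coding transcript with 24 counts in all fetuses held 6.94% of Gm129 counts in MNR and 2.74% in control, and another with 38 counts held 9.72% in MNR and 6.85% in control. Cry2 shares 295 exon bases with an antisense gene that had 1 count in all fetuses, and Bhlhe40 shares 118 with one that had 28.

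Across the 10 litters, the genes whose log2 CPM followed each member most closely, by Pearson's r among 12134 other named genes (12135 for Gm129), reached r = 0.887 to 0.968. They were Rapgef2, Rnf4 and Cyp2s1 for Per1, Lamc1, Phrf1 and Scaf4 for Per2, Atg14, Gnaz and Kdm2a for Per3, and Caprin1, Eif4g1 and Irak1 for Cry1. Cry2 was followed by Lysmd2, Tiparp and Dlc1, Gm129 by Alkbh5, Ankrd37 and Bcl6, Bhlhe40 by Gldc, Zfp609 and Pole4, and Bhlhe41 by Itsn2, Stard9 and Inpp5d. With group means removed from every gene these correlations were 0.860 to 0.965. None of the 24 passed the edgeR threshold between MNR and control. The genes were picked as the highest of that many correlations over 10 litters, so high r values are favoured by the choice. The values with group means removed use the same genes and litters. All genes of a litter share its libraries, and these correlations are descriptions with no test.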
